A study of Schizosaccharomyces pombe with 12 samples.

Results

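The genes at both ends of chromosome I of the fission yeast Schizosaccharomyces pombe were followed by RNA-seq in 6 conditions. They were chosen by identifier, as the features named for the end cosmids SPAC212 and SPAC977 (left end) or SPAC869, SPAC186 and SPAC750 (right end), without SPAC186.01, the cell surface gene pfl9. The rule gave 57 of the 7268 features of the deposited table, 30 on the left and 27 on the right, and RefSeq lists 52 of them as protein-coding and 5 as pseudogenes. Whole-cell RNA came from wild-type (WT) cells, from lsd1-ΔHMG cells (lsd1dHMG in the labels), in which the C-terminus of the histone demethylase homologue Lsd1 with its HMG domain is deleted, and from set1Δ cells (set1d), which lack Set1, the H3K4 methyltransferase of the COMPASS complex. Each strain was kept at the permissive 30°C or shifted to 37°C for 2 hours, and each of the 6 conditions had 2 libraries from independently derived replicates. The study's methods describe the truncated Lsd1 as carrying a Flag-TEV-Protein A tag; which markers or tags each sequenced strain carried is not given in the sources used here.

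Subtelomeres are the stretches just inside the telomere repeats. In fission yeast the outermost genes are packed in heterochromatin, which carries H3K9 methylation made by Clr4 and is bound by the HP1 proteins Swi6 and Chp2, and a more condensed domain lies further in. The outermost genes belong to families with near-identical copies at other chromosome ends, among them the RecQ-type helicase gene tlh1. Further in lie single-copy genes, many of them for nutrient uptake, redox metabolism and stress, which are kept low in dividing cells.

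Near-identical copies bear on every value of the outer genes. Of the 57 members, 33 held at least 1 stretch of 150 bases, the read length, that recurs exactly elsewhere in the RefSeq assembly ASM294v3, 24 of them on the left and 9 on the right, and in 10 every such stretch did. The other 24 had none and are called single-copy here. Among proteins, 27 members had a copy of at least 90% identity over at least 80% of the length. The authors' counting could split reads between such copies. The dehydrogenase gene ayr2 and its chromosome II copy SPBC1348.09 stood at a ratio between 0.98 and 1.01 in the 6 conditions, so their levels cannot be told apart. In the same assembly 38 members lie across from a feature annotated on the other strand. The methods describe filtering reads by strand for a stranded analysis, and whether it applies to the deposited table is not stated, so antisense RNA may be part of their counts.

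A pair of upstream windows shows how alike the outer ends are, and a further pair shows the motifs searched near genes further in. Each run below is the 250 bases before the annotated start in RefSeq ASM294v3, read by identifier. The study aligned to ASM294v2, and whether these positions differ there was not tested. SPAC212.08c and SPAC750.07c, at opposite ends of the chromosome, had identical windows (chrI:11908-12157, + strand, and chrI:5575565-5575814, − strand), printed once. The window of SPAC212.12 (chrI:15605-15854, + strand) differed at 160 of the positions, but its last 22 bases, in capitals, were the same.
SPAC212.08c and SPAC750.07c: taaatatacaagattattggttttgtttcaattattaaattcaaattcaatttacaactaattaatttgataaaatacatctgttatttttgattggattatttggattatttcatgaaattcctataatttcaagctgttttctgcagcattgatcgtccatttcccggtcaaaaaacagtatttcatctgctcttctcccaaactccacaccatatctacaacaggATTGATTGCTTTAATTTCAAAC
SPAC212.12: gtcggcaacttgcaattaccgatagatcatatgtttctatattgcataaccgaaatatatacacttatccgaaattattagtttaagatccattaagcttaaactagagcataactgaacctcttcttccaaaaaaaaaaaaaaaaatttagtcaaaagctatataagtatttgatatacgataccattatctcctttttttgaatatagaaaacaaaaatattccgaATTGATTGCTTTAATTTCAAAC
Those 22 bases were found in 4 of the 5144 upstream windows, which are the 3 members and their chromosome II relative SPBCPT2R1.06c. The windows of the membrane protein genes ftm2, on the left, and ftm3, on the right, differed at 1 position, A45T, with positions counted from 1 at the 5′ end of the ftm2 window.

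Further in, the core of the cyclic AMP response element, TGACGT on either strand, was searched because the stress factor Atf1 is known to bind it, together with CCCCT, the core of the stress response element known from budding yeast. The first motif, TGACGT, was present in 7 of the 56 members with a full window (12.5%) and in 5.54% of all windows, and the second in 5 members (8.93%) and in 8.28% of all windows. These 2 motifs do not overlap each other, and in the 150 bases nearest the start the first was found in 1 member, SPAC977.14c. That was 1.79% of the 56 members, where 4.10% of all windows of that length held it. SPAC869.09 (chrI:5497392-5497641, − strand) and SPAC186.02c (chrI:5530961-5531210, − strand), which fell in both mutants at 30°C, held both motifs, shown in capitals. Other members with TGACGT, SPAC212.02, SPAC186.06 and SPAC186.07c, rose in set1Δ at 30°C. pcm2, mel1, hry1 and SPAC186.04c also fell in both mutants at 30°C and held neither motif. A link between the motifs and these changes was not tested. Each printed window also lies in or across an annotated non-coding RNA in the assembly.
SPAC869.09: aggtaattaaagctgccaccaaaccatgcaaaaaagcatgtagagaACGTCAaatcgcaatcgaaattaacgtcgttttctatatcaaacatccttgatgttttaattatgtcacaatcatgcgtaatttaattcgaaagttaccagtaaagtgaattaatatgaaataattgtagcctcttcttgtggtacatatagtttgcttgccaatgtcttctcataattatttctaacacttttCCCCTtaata
SPAC186.02c: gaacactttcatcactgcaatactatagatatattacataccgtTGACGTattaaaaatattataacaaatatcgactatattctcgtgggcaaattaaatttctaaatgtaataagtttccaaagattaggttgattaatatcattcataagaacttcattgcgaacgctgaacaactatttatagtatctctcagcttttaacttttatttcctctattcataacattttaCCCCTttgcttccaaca

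Library totals ran from 27642384 to 34843653 counts, and the members took from 0.384% to 1.35% of them. Values below are CPM, the counts of a gene relative to its library's total after TMM scaling, given for replicate 1 and then replicate 2. All 57 members were among the 6904 features tested with edgeR's quasi-likelihood test. Called, rose and fell are used where the adjusted p was below 0.05 and the change reached 1 or -1 on the log2 scale. Before the results, the WT labels need a caution. The heat chaperone gene hsp16 stood at 39422 and 36205 CPM in the WT libraries labelled 30°C and at 4533 and 5798 in those labelled 37°C, the reverse of the direction known for this gene. In set1Δ it stood at 830 and 727 at 30°C and at 15391 and 19026 at 37°C, and in lsd1-ΔHMG at 2261 and 2179 and at 3968 and 5093. A second stress gene, hsp9, stood at 12912 and 11856 CPM in the WT libraries labelled 30°C and at 883 and 981 in those labelled 37°C. From 30°C to 37°C it went from 2377 and 2811 to 1800 and 1910 in lsd1-ΔHMG. In set1Δ it went from 920 and 721 to 1586 and 1181, and neither change in the mutants was called. Every comparison with WT therefore rests on libraries whose temperature label hsp16 goes against. What lies behind these WT values was not tested, and turned labels, where given below, are only a possible reading. The comparisons within and between the mutants leave WT out of the contrast, but all 12 libraries shared the scaling, the filter and the estimate of spread. The set1 gene itself was at 14.3 to 16.2 CPM in the set1Δ libraries and at 64.4 to 112 in the others.

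With heat, falls outnumbered rises among the members in both mutants (the plot of shares called). In set1Δ cells moved to 37°C, 41 of 57 members fell and 6 rose, where 20.9% of all tested features fell and 11.4% rose. In lsd1-ΔHMG cells 23 fell and 2 rose with heat, against 10.5% and 4.48% of all features. In the libraries labelled WT 26 fell and 2 rose, against 15.9% and 5.55%, and with the doubted temperature labels turned these would be 26 rises and 2 falls. The median log2 fold change with heat was -1.89 for the members in set1Δ, -0.68 in lsd1-ΔHMG and -0.99 in WT, and 0.03, 0.05 and -0.04 for all features. Each of the 57 members was called in at least 1 of the 9 comparisons of conditions, where 80.5% of all features were.

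**Figure D1:**
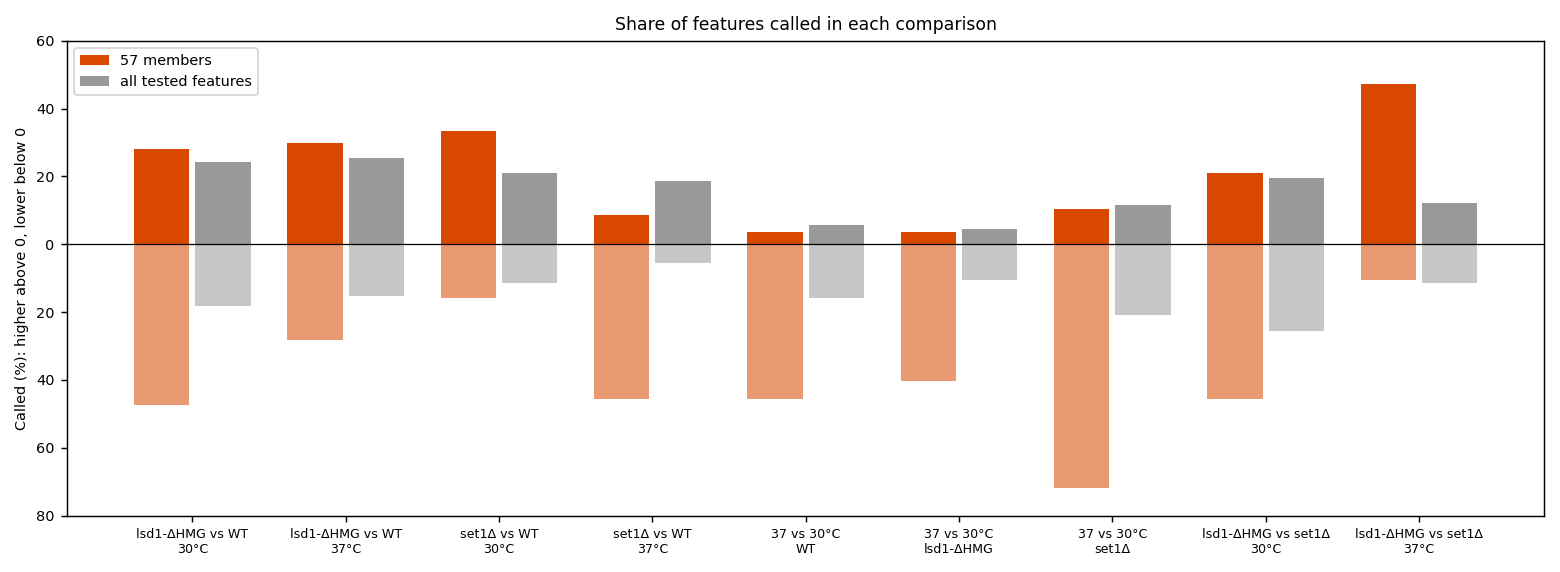
Percent of features called higher (above 0) or lower (below 0) in each comparison, for the 57 members (orange) and all 6904 tested features (grey). The tallest member bar is the fall from 30°C to 37°C in set1Δ, 41 of 57 members against 20.9% of all features.

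The condition in which a member stood highest was most often set1Δ at 30°C, for 21 members, followed by WT at 30°C for 17 and lsd1-ΔHMG at 30°C for 11. The lowest mean was in set1Δ at 37°C for 29 members. These counts were not taken over all features, so whether this order is particular to the members is not known. Levels per length spanned a wide range. SPAC977.18, which RefSeq lists as uncharacterized, reached 5456 CPM per kb in set1Δ at 30°C, and the aldo-keto reductase gene SPAC977.14c reached 3989 CPM per kb in set1Δ at 37°C. The pseudogene SPAC212.10 did not exceed 0.781 CPM per kb in any condition.

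**Figure D2:**
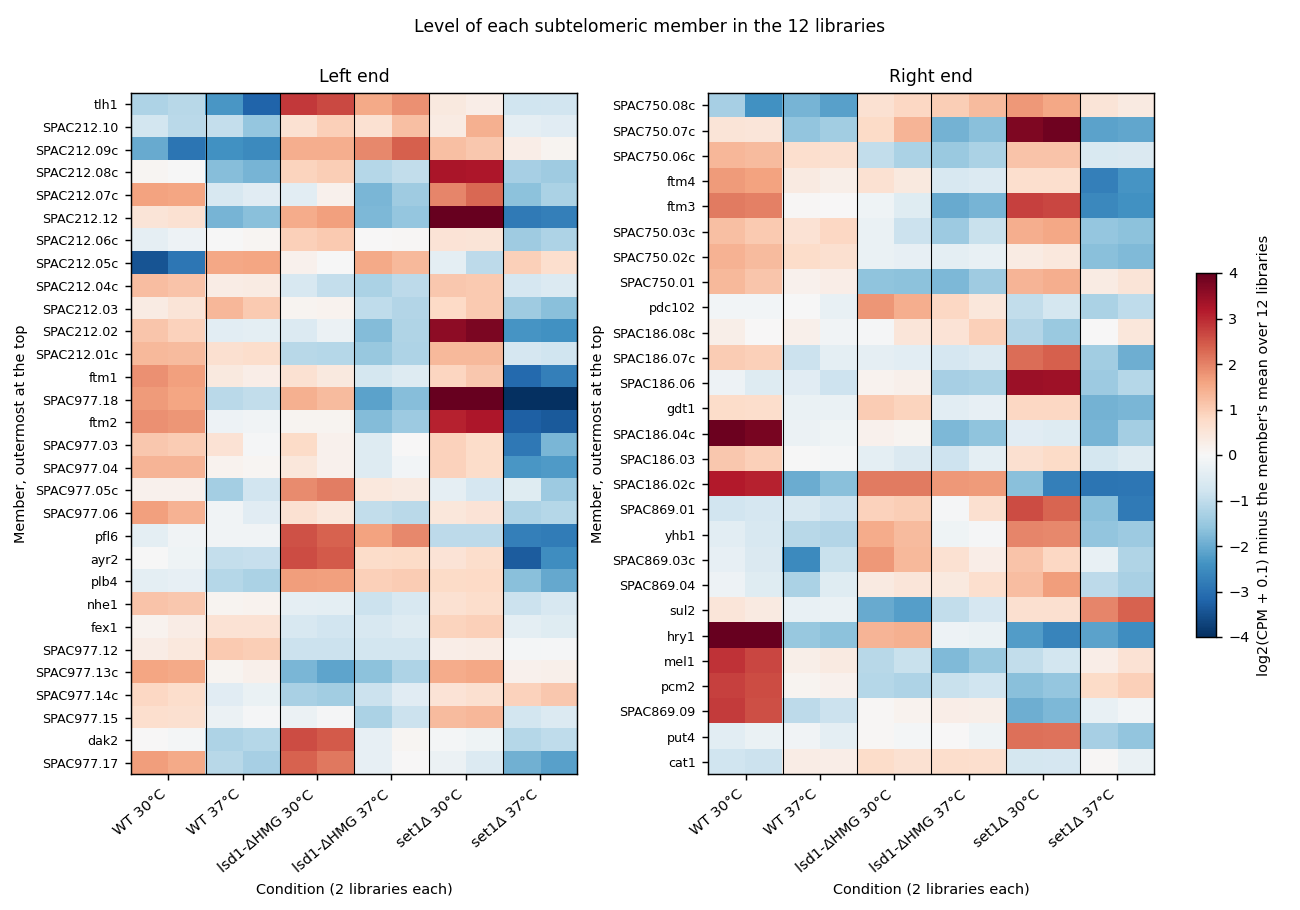
Level of each member (rows, outermost gene at the top) in the 12 libraries (columns, 2 per condition), as log2(CPM + 0.1) minus the member's mean, with red above and blue below the mean and values past 4 in either direction drawn in the end colours. Libraries of 1 condition look alike, the darkest reds of the left end lie in set1Δ at 30°C, and the deepest blue there is SPAC977.18 in set1Δ at 37°C.

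The outermost gene of the left arm, tlh1 (SPAC212.11), codes for a RecQ-type DNA helicase and is kept silent by heterochromatin. It stood at 1.27 and 1.39 CPM in WT at 30°C and at 0.540 and 0.250 at 37°C. In lsd1-ΔHMG it was at 22.7 and 19.99 at 30°C and at 9.19 and 11.3 at 37°C, and in set1Δ at 4.10 and 3.80 and at 1.77 and 1.79. Both mutants lay above WT at both temperatures without overlap, and lsd1-ΔHMG above set1Δ. The log2 fold change against WT was 4.003 in lsd1-ΔHMG at 30°C (SE 0.21, adjusted p = 7.5e-10 from edgeR) and 4.64 at 37°C (SE 0.25, adjusted p = 4.9e-10 from edgeR). In set1Δ it was 1.57 (adjusted p = 2.9e-05 from edgeR) and 2.12 (adjusted p = 1.8e-05 from edgeR). Tested directly, lsd1-ΔHMG exceeded set1Δ by 2.43 at 30°C (adjusted p = 2.3e-08 from edgeR) and by 2.52 at 37°C (adjusted p = 8.5e-08 from edgeR), contrasts that leave WT out. With heat tlh1 changed by -1.06 in lsd1-ΔHMG, a call kept in 19 of 23 settings (-0.86 when gene length and GC content were offset), and by -1.15 in set1Δ, kept in 22. In WT it changed by -1.70 as labelled, or 1.70 with the labels turned. With those offsets the gain over WT in lsd1-ΔHMG was 2.22 and 2.58, in set1Δ it was 0.87 and 0.67, no longer called, and lsd1-ΔHMG exceeded set1Δ at 30°C by 1.35.

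The tlh1 value is shared with tlh2 on chromosome II, since 97.3% of its 150-base stretches recur elsewhere. tlh1 over tlh2 was between 0.52 and 0.73 in the 6 conditions. Over the 12 libraries, the 5 tested features whose log2 CPM followed tlh1 most closely were tlh2 (Pearson r = 0.996), cgs2, a cyclic nucleotide phosphodiesterase gene (0.987), bxi1 of the BAX inhibitor family (0.986), the mitochondrial matrix protein gene mmf1 (0.984) and tos4, listed as a transcription factor (0.982). These libraries form 6 groups of 2 and share depth and scaling, so the coefficients are descriptions.

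The outer ends hold 3 copies of malate genes, SPAC212.10 and SPAC212.09c just inside tlh1 and SPAC750.08c on the right. All 3 were called higher in both mutants at 30°C and in lsd1-ΔHMG at 37°C, and 2 of 3 in set1Δ at 37°C, where SPAC212.10 was not called. Their near-identical copies mae1 and mae2, which are not members, also had higher means in both mutants, so such rises were not particular to the ends. Mean CPM of mae2 was 157 and 35.2 in WT at 30°C and 37°C, 1434 and 653 in lsd1-ΔHMG and 354 and 467 in set1Δ. For mae1 it was 178 and 121, 541 and 586, and 305 and 323. SPAC212.09c is a pseudogene whose closest protein match was the malic enzyme Mae2, at 93.6% identity, and SPAC750.08c, the outermost gene of the right arm, is annotated as an NAD-dependent malic enzyme. SPAC212.09c was at 1.01 and 0.488 CPM in WT at 30°C and at 0.721 and 0.655 at 37°C. It was at 12.1 and 12.01 and at 16.7 and 23.0 in lsd1-ΔHMG, and at 10.2 and 9.28 and at 5.20 and 4.73 in set1Δ. No mutant library overlapped a WT library. Its log2 fold change was 4.01 (SE 0.26, adjusted p = 4.2e-09 from edgeR) and 4.84 (SE 0.24, adjusted p = 3.1e-10 from edgeR) in lsd1-ΔHMG at 30°C and 37°C. In set1Δ it was 3.70 (adjusted p = 1.7e-08 from edgeR) and 2.84 (adjusted p = 2.9e-07 from edgeR). SPAC750.08c, whose every 150-base stretch recurs and whose closest match is SPAC212.09c, is no independent measurement. It rose by 2.69 and 3.39 in lsd1-ΔHMG and by 3.64 and 2.67 in set1Δ, the last being 1.49 with the GC and length offsets. With the GC and length offsets SPAC212.09c rose by 2.68 and 3.29 in lsd1-ΔHMG and by 3.12 and 1.65 in set1Δ, each still called. SPAC212.10, whose closest relative in the assembly is SPBCPT2R1.10, was at 2 and 1 counts in the WT libraries at 30°C and at 11.7 and 13.5 in lsd1-ΔHMG, and is given without a fold.

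tlh1, SPAC212.09c and SPAC750.08c were the 3 members that rose in set1Δ at both temperatures, as 7.72% of all features did, and also the 3 that rose in both mutants at 37°C, as 15.3% of all features did. The helicase-like SPAC212.06c, related to tlh1, was at 4.66 and 5.26 CPM in WT at 30°C and at 11.7 and 12.7 in lsd1-ΔHMG. It rose by 1.30 on the log2 scale (adjusted p = 8.9e-07 from edgeR). At 37°C the values were 5.996 and 6.37 in WT and 6.10 and 6.27 in lsd1-ΔHMG, and its change in set1Δ was -1.38 (adjusted p = 2.1e-06 from edgeR).

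Against WT at 30°C, 16 members rose and 27 fell in lsd1-ΔHMG, where 24.4% and 18.1% of all tested features did. At 37°C 17 rose and 16 fell, against 25.4% and 15.4%. The median log2 fold change of the members was -0.79 at 30°C and -0.29 at 37°C, and -0.11 and -0.06 over all features. With the GC and length offsets the member medians were -0.31 and -0.47, which turns the order of the temperatures, and without lsd1-ΔHMG replicate 2 at 37°C the second was -0.51. Comparisons at one temperature share their WT libraries, and calls in several comparisons are set side by side without a test of their overlap. The same direction was called at both temperatures for 12 members that rose and 14 that fell, where 20.1% and 7.85% of all features did so. The split at 37°C depended on the scaling. It was 14 up and 20 down with DESeq2 size factors and 12 up and 23 down with factors from protein-coding genes, which moved the median of all features from -0.06 to -0.31.

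Among the genes that rose in lsd1-ΔHMG, a neighbouring run on the left held pfl6, a flocculin-type cell surface glycoprotein gene, ayr2, and the phospholipase gene plb4. pfl6 was at 2.83 and 3.45 CPM in WT at 30°C and at 22.4 and 19.9 in lsd1-ΔHMG. The shifted cells held 3.45 and 3.43 in WT and 11.8 and 14.7 in lsd1-ΔHMG, and in set1Δ it was at 1.78 and 1.77 and at 0.482 and 0.453. lsd1-ΔHMG was thus the highest and set1Δ the lowest strain at both temperatures. The log2 fold change against WT was 2.75 (SE 0.16, adjusted p = 2.2e-09 from edgeR) and 1.95 (adjusted p = 4.0e-08 from edgeR) in lsd1-ΔHMG. Against set1Δ it was 3.57 (adjusted p = 3.5e-10 from edgeR) at 30°C and 4.82 (adjusted p = 7.8e-10 from edgeR) at 37°C. ayr2 rose by 2.65 and 1.71 and plb4 by 2.05 and 2.21 in lsd1-ΔHMG against WT, and ayr2 exceeded set1Δ at 37°C by 3.74 (adjusted p = 5.4e-09 from edgeR). These 3 genes have chromosome II copies at a ratio between 0.98 and 1.41, so the end that moved cannot be told.

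dak2, the single-copy gene for dihydroxyacetone kinase of glycerol metabolism, was at 120.5 and 111 CPM in WT at 30°C and at 719 and 654 in lsd1-ΔHMG. It was at 112 and 104 in set1Δ. At 37°C the strains were closer, at 50.1 and 54.2 in WT, 94.5 and 126 in lsd1-ΔHMG and 54.1 and 59.0 in set1Δ. Its log2 fold change in lsd1-ΔHMG was 2.57 (SE 0.12, adjusted p = 3.8e-10 from edgeR) at 30°C and 1.08 (adjusted p = 1.0e-06 from edgeR) at 37°C. dak2 overlaps SPAC977.17, a gene of the MIP channel superfamily on the other strand. SPAC977.17 was at 304 and 258 CPM in lsd1-ΔHMG at 30°C, at 190.5 and 169 in WT and at 50.2 and 40.9 in set1Δ, where it fell by -1.98 (adjusted p = 3.1e-08 from edgeR). On the right arm, cat1, which takes up arginine and lysine, rose by 1.5 and the pyruvate decarboxylase gene pdc102 by 1.76 in lsd1-ΔHMG at 30°C.

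Of the 27 members that fell in lsd1-ΔHMG at 30°C, 16 were among the 33 with shared stretches and 11 among the 24 single-copy members. SPAC212.01c on the left and SPAC750.06c on the right, uncharacterized near-identical genes, were at 54.9 and 53.2 and at 69.3 and 67.0 CPM in WT at 30°C. In lsd1-ΔHMG they were at 10.3 and 9.995 and at 13.9 and 11.5. Their log2 fold changes were -2.41 and -2.43 at 30°C and -2.06 (adjusted p = 6.2e-10 from edgeR) and -2.04 (adjusted p = 8.1e-10 from edgeR) at 37°C. With the GC and length offsets the change of SPAC212.01c at 37°C was -1.35. As in each copy pair, these are not independent measurements.

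The aldo-keto reductase genes of the 2 ends were both lower in lsd1-ΔHMG at 30°C and differed at 37°C. SPAC977.14c holds 11.5% and SPAC750.01 13.1% of 150-base stretches that recur. SPAC750.01 was at 465 and 401 CPM in WT at 30°C, at 61.6 and 60.4 in lsd1-ΔHMG and at 479.7 and 509 in set1Δ. At 37°C it was at 209 and 224 in WT, 54.4 and 69.8 in lsd1-ΔHMG and 235 and 268 in set1Δ. lsd1-ΔHMG lay below the other strains at both temperatures, by -2.83 against WT at 30°C (SE 0.12, adjusted p = 2.0e-10 from edgeR) and by -2.02 against set1Δ at 37°C (adjusted p = 7.0e-09 from edgeR). SPAC977.14c fell by -2.12 in lsd1-ΔHMG at 30°C, from 4360 and 3994 to 988 and 940.0 CPM. At 37°C it was at 1795 and 2034 in WT, 1346 and 1777 in lsd1-ΔHMG and 4627 and 5177 in set1Δ. It rose by 1.36 in set1Δ there (adjusted p = 6.8e-07 from edgeR), and its change in lsd1-ΔHMG was -0.29, not called. SPAC977.14c over SPAC750.01 ran from 7.47 in set1Δ at 30°C to 25.2 in lsd1-ΔHMG at 37°C. Its neighbour SPAC977.13c, a single-copy pseudogene, fell from 44.5 and 42.2 to 4.11 and 3.38 CPM in lsd1-ΔHMG at 30°C and stood at 41.9 and 43.9 in set1Δ. Between these mutants its log2 fold change was -3.51 (SE 0.15, adjusted p = 6.3e-11 from edgeR).

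**Figure D3:**
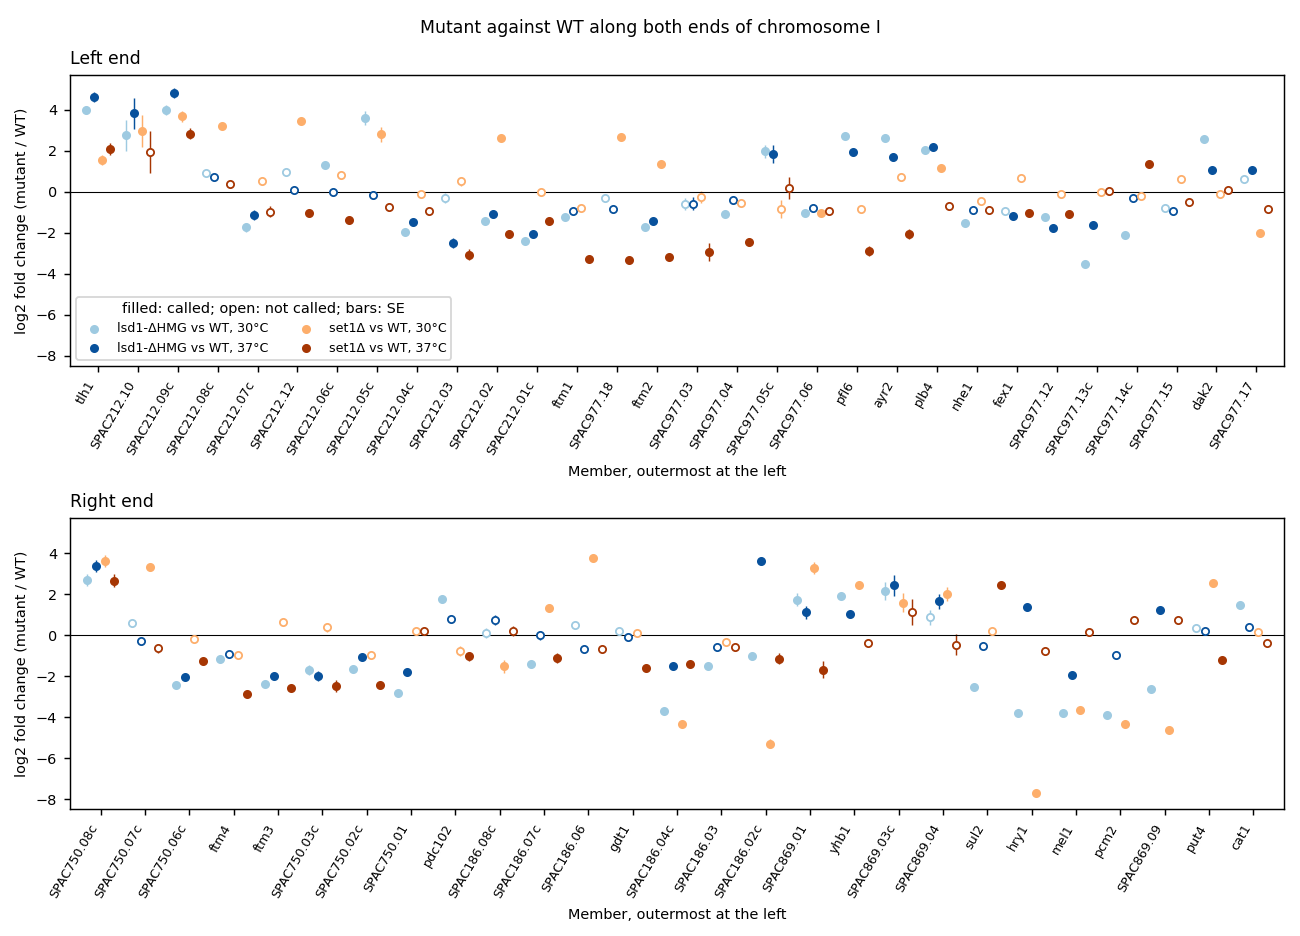
Log2 fold change of each member against WT in lsd1-ΔHMG (blue) and set1Δ (orange) at 30°C (light) and 37°C (dark), in gene order from the chromosome end, with bars of 1 SE. Filled points were called. tlh1 and SPAC212.09c lie above 0 in all 4 comparisons, and hry1 on the right reaches -7.69 in set1Δ at 30°C.

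In set1Δ at 30°C 19 members rose and 9 fell against WT, where 21.1% and 11.6% of all features did. At 37°C the picture differed, with 5 higher and 26 lower, against 18.7% and 5.53%. With the GC and length offsets the counts were 15 higher and 14 lower at 30°C and 5 higher and 29 lower at 37°C. The median log2 fold change of the members was 0.19 at 30°C and -0.91 at 37°C, and 0.22 and 0.01 over all features. The first had no stable sign, at -0.05 with only the libraries compared, 0.05 with the offsets and 0.39 without set1Δ replicate 1 at 30°C. The median of all features moved with it, to -0.0005, 0.03 and 0.39 in the same settings.

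Of the 4 genes counted as cell surface genes, 3 rose in set1Δ at 30°C, where 21.1% of all features did, and the other was pfl6. The 3 that rose are near-identical copies of each other and not independent measurements. SPAC212.12, annotated as a GPI-anchored protein, was at 59.96 and 63.9 CPM in WT, at 116 and 130.2 in lsd1-ΔHMG and at 668 and 715 in set1Δ. At 37°C it was at 11.5 and 13.1 in WT, 11.9 and 14.2 in lsd1-ΔHMG and 5.78 and 6.21 in set1Δ. set1Δ was therefore the highest strain at 30°C and the lowest at 37°C. The log2 fold change against WT was 3.48 (SE 0.099, adjusted p = 4.4e-12 from edgeR) at 30°C and -1.03 (SE 0.12, adjusted p = 2.7e-06 from edgeR) at 37°C. SPAC212.08c, which shares its upstream window with SPAC750.07c, rose from 12.7 and 11.9 to 117 and 115 CPM, by 3.24 (adjusted p = 1.9e-11 from edgeR). SPAC750.07c, uncharacterized in RefSeq but counted here with the cell surface genes, matched the SPAC212.12 protein at 100% identity. Every 150-base stretch of both genes recurs elsewhere. SPAC750.07c rose from 19.0 and 18.5 to 177 and 197 CPM, by 3.32 (adjusted p = 7.8e-10 from edgeR). All 3 are in the set with the common 22 bases, and SPAC212.12 lies across from the non-coding RNA SPNCRNA.1701.

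SPAC977.18 had the largest fall with heat of the 57 members in set1Δ. It was at 918 and 842 CPM in WT, 755 and 689 in lsd1-ΔHMG and 5688 and 5749 in set1Δ at 30°C. At 37°C it was at 133 and 143 in WT, 64.9 and 87.8 in lsd1-ΔHMG and 13.3 and 14.5 in set1Δ. The order of the strains turned over between the temperatures. Against WT its log2 fold change was 2.70 (SE 0.13, adjusted p = 5.7e-10 from edgeR) at 30°C and -3.31 (SE 0.14, adjusted p = 2.4e-10 from edgeR) at 37°C. SPAC212.02, an uncharacterized gene, was at 22.2 and 19.4 CPM in WT, 6.91 and 8.67 in lsd1-ΔHMG and 123 and 139.5 in set1Δ at 30°C, with a difference of -4.08 (SE 0.16, adjusted p = 3.8e-11 from edgeR) from set1Δ to lsd1-ΔHMG. In all, 7 members were higher in set1Δ than in WT at 30°C and lower at 37°C, where 1.09% of all features were. They were SPAC212.12, SPAC212.02, SPAC977.18, ftm2, the proline transporter gene put4, the amidase gene SPAC869.01 and the hydroxyacid dehydrogenase gene SPAC186.07c.

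The 4 ftm genes, 2 at each end, are annotated as coding for proteins with transmembrane helices. ftm2 was at 98.2 and 93.2 CPM in WT at 30°C, 29.9 and 29.4 in lsd1-ΔHMG and 233 and 259.7 in set1Δ. Its counterpart ftm3 was at 66.6 and 63.8, 13.8 and 11.1, and 104 and 101. In both genes set1Δ was highest and lsd1-ΔHMG lowest at 30°C. Against WT, set1Δ differed by 1.36 (adjusted p = 9.5e-09 from edgeR) for ftm2 and by 0.65, not called, for ftm3. ftm1 on the left was at 229 and 200.01 CPM in WT at 30°C and at 116 and 134 in set1Δ. At 37°C it was at 83.1 and 77.5 in WT and at 7.35 and 9.46 in set1Δ. At 37°C all 4 ftm genes were lower in set1Δ than in WT, ftm1 by -3.25 (SE 0.14, adjusted p = 2.8e-10 from edgeR), ftm2 by -3.19 (SE 0.12, adjusted p = 1.3e-10 from edgeR), ftm4 by -2.85 and ftm3 by -2.58. Of all features 5.53% were lower in that comparison.

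Of the 18 single-copy members on the right arm, 7 rose and 7 fell in set1Δ at 30°C, against 21.1% and 11.6% of all features. The following 3 are among those members that rose. SPAC186.06, an isomerase gene, went from 20.5 and 16.5 CPM in WT to 251.2 and 249 in set1Δ, and was at 26.1 and 26.9 in lsd1-ΔHMG. The log2 fold change in set1Δ was 3.76 (SE 0.14, adjusted p = 7.6e-11 from edgeR), and lsd1-ΔHMG lay below set1Δ by -3.24 (adjusted p = 9.1e-11 from edgeR). yhb1, for the nitric oxide dioxygenase that detoxifies nitric oxide, was at 643 and 557 in WT, 2422 and 2103 in lsd1-ΔHMG and 3368 and 3287 in set1Δ. It rose in both mutants, by 1.92 and 2.47, and stood at 288 and 318 in set1Δ at 37°C against 401 and 383 in WT, a difference that was not called. put4 rose from 16.9 and 19.2 to 105 and 103 CPM in set1Δ at 30°C. The sulfate transporter gene sul2 was higher in set1Δ at 37°C, at 758 and 988 CPM against 157 and 163 in WT and 97.9 and 122 in lsd1-ΔHMG. It rose by 2.45 against WT (SE 0.13, adjusted p = 2.4e-09 from edgeR) and lsd1-ΔHMG minus set1Δ was -2.99 (adjusted p = 1.4e-09 from edgeR).

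A group on the right arm was highest in the libraries labelled WT 30°C. In the run SPAC869.09, pcm2, mel1 and hry1 and in the nearby SPAC186.02c and SPAC186.04c, WT at 30°C was the highest condition. These single-copy genes code for a conidiation-type (Con-6) protein, a repair methyltransferase for damaged aspartyl residues, melibiase, an HHE-domain cation-binding protein, a hydroxyacid dehydrogenase and an uncharacterized protein related to SPAC977.17. hry1 was at 275 and 236 CPM in WT at 30°C and at 2.37 and 2.15 at 37°C. It was at 18.2 and 19.0 and at 6.08 and 5.86 in lsd1-ΔHMG, and at 1.43 and 1.04 and at 1.51 and 1.16 in set1Δ. Its log2 fold change against WT at 30°C was -3.78 (SE 0.12, adjusted p = 1.9e-11 from edgeR) in lsd1-ΔHMG and -7.69 (SE 0.16, adjusted p = 5.5e-13 from edgeR) in set1Δ, and -6.81 (SE 0.14, adjusted p = 1.3e-12 from edgeR) with heat in WT. hsp16 and hsp9 were also highest in these WT libraries, and their part in these values was not tested.

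SPAC186.02c was at 69.9 and 65.3 CPM in WT at 30°C, 33.2 and 32.8 in lsd1-ΔHMG and 2.36 and 1.09 in set1Δ. At 37°C it was at 1.85 and 2.37 in WT, 26.0 and 25.4 in lsd1-ΔHMG and 0.931 and 0.963 in set1Δ. The change with heat in lsd1-ΔHMG was not called, and lsd1-ΔHMG exceeded set1Δ by 4.25 (SE 0.21, adjusted p = 3.1e-10 from edgeR) at 30°C and by 4.75 (SE 0.21, adjusted p = 1.1e-09 from edgeR) at 37°C, comparisons without WT. pcm2 was at 67.4 and 60.96 CPM in WT at 30°C and at 4.43 and 4.17 in lsd1-ΔHMG and 3.03 and 3.35 in set1Δ. It fell by -3.90 and -4.33. mel1 fell by -3.81 and -3.65, SPAC869.09 by -2.60 and -4.60, and SPAC186.04c by -3.71 and -4.34 in lsd1-ΔHMG and set1Δ at 30°C. In all, 7 members fell in both mutants at 30°C, these 6 and SPAC977.06, where 5.65% of all features did.

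**Figure D4:**
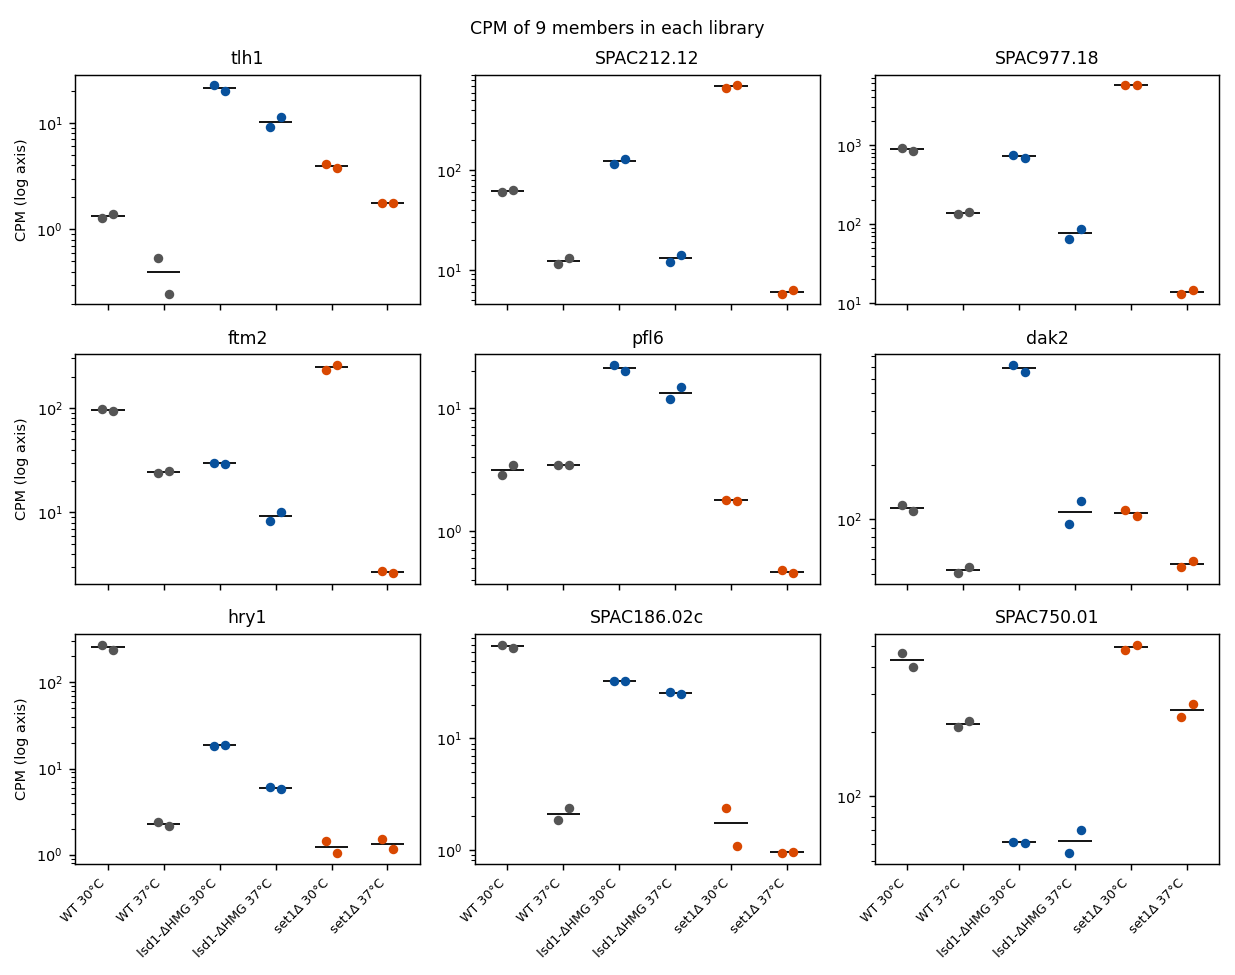
CPM of 9 members in each library on a log axis, with 2 points per condition and a line at their mean (grey WT, blue lsd1-ΔHMG, orange set1Δ). SPAC212.12, SPAC977.18 and ftm2 are highest in set1Δ at 30°C and lowest in set1Δ at 37°C, and hry1 reaches 275 and 236 CPM in WT at 30°C and at most 19.0 elsewhere.

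The heat comparisons within the mutants leave WT out of the contrast. In set1Δ, SPAC977.18 fell from 5688 and 5749 to 13.3 and 14.5 CPM, a log2 fold change of -8.68 (SE 0.18, adjusted p = 1.7e-13 from edgeR). SPAC212.12 fell by -6.85 (SE 0.12, adjusted p = 9.3e-14 from edgeR), ftm2 by -6.52 (SE 0.13, adjusted p = 1.4e-13 from edgeR) and SPAC212.02 by -6.13. In lsd1-ΔHMG the largest falls with heat were also SPAC977.18, by -3.24 (SE 0.14, adjusted p = 9.0e-10 from edgeR), and SPAC212.12, by -3.24 (SE 0.10, adjusted p = 1.0e-10 from edgeR), then SPAC750.07c by -2.90. By group, all 4 cell surface genes and all 4 ftm genes fell with heat in set1Δ, 11 of 20 enzyme genes fell and 3 rose, and 7 of 9 transporter genes fell and 1 rose. Of all features 20.9% fell and 11.4% rose. Within these groups SPAC212.12, SPAC212.08c and SPAC750.07c are near-identical copies of each other, as are ftm2 and ftm3. Such copies are not independent measurements.

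Heat lowered 20 members in both mutants, where 6.66% of all features fell in both, among them tlh1, the 4 ftm genes, SPAC212.12 and SPAC977.18. A further 21 fell in set1Δ with no call of a fall in lsd1-ΔHMG, where 14.2% of all features did. Of the 20, 14 also fell in WT as labelled (2.33% of all features fell in the 3 strains), and with the WT labels turned these 14 would be rises in WT. The members that rose with heat were few. SPAC212.05c, a pseudogene with every stretch shared, rose from 0.223 and 0.375 to 10.3 and 10.4 CPM in WT, by 5.09 (SE 0.29, adjusted p = 4.7e-09 from edgeR), and by 1.34 in lsd1-ΔHMG and 1.54 in set1Δ. sul2 rose by 1.29 in lsd1-ΔHMG and 1.53 in set1Δ, and cat1 by 1.10 in WT. In set1Δ pcm2 rose by 2.51, SPAC869.09 by 1.69, mel1 by 1.29 and the L-lactate dehydrogenase gene SPAC186.08c by 1.65.

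**Figure D5:**
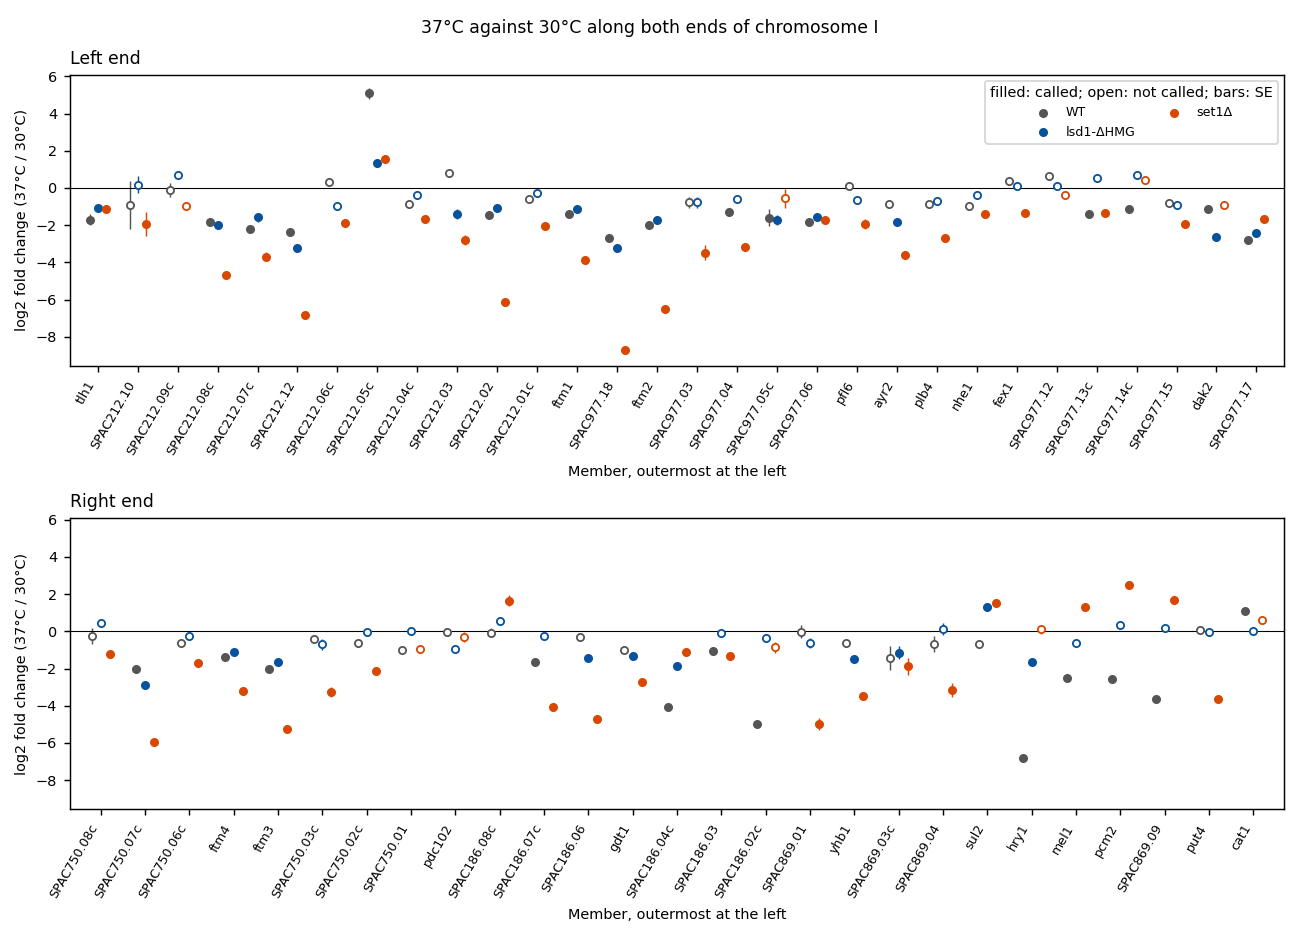
Log2 fold change from 30°C to 37°C of each member in WT (grey), lsd1-ΔHMG (blue) and set1Δ (orange), in gene order from the chromosome end, with bars of 1 SE and filled points for calls. The set1Δ points of the outer left arm lie lowest, down to -8.68 for SPAC977.18, and hry1 is lowest in WT at -6.81.

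Whether the change in a mutant differed between temperatures was tested with an interaction. For set1Δ 42 members were called, 10 with a more positive and 32 with a more negative change at 37°C, where 36.8% of all features were called in either direction. For lsd1-ΔHMG 17 were called, 11 more positive and 6 more negative, where 18.5% of all features were; with DESeq2 size factors the split was 10 and 10. The median interaction of the members was -1.43 for set1Δ and 0.31 for lsd1-ΔHMG, against 0.04 and 0.13 over all features. The second was 0.20 with DESeq2 size factors or without WT replicate 1 at 37°C, and 0.155 without either set1Δ library at 30°C or without set1Δ replicate 1 at 37°C. The median of all features moved as well, to 0.01 with DESeq2 size factors and 0.001 without that WT library. It was -0.03 with each of those set1Δ libraries left out. Both interactions use the WT libraries. Between the mutants directly, lsd1-ΔHMG was higher than set1Δ for 12 members and lower for 26 at 30°C, against 19.4% and 25.5% of all features. At 37°C it was higher for 27 and lower for 6, against 12% and 11.4%. The median difference turned from -0.68 at 30°C to 0.96 at 37°C, with 0.08 and 0.03 over all features, and the first was -0.41 with the GC and length offsets.

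The members were also counted by whether they held shared stretches. In set1Δ at 37°C 19 of 33 members with shared stretches and 7 of 24 single-copy members were lower than in WT (5.53% of all features). With heat in set1Δ 27 of 33 and 14 of 24 fell (20.9% of all features). In set1Δ at 30°C 12 of 33 rose and 1 fell, and 7 of 24 rose and 8 fell. Of all features 21.1% rose and 11.6% fell there. In lsd1-ΔHMG at 30°C 16 of 33 and 11 of 24 fell (18.1% of all features). By arm, 24 of 30 members on the left and 17 of 27 on the right fell with heat in set1Δ, again against 20.9%. These splits are descriptions, and the difference between the groups was not tested.

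The same counts were taken over 75 features named for the end cosmids of chromosome II, among them copies of members. With heat in set1Δ 46 of them fell and 8 rose, against 20.9% and 11.4% of all features. In set1Δ against WT at 37°C 26 of the 75 were lower and 10 higher, against 5.53% and 18.7%. In lsd1-ΔHMG at 30°C 41 were lower and 14 higher, against 18.1% and 24.4%. Over the 2296 other tested features with chromosome I identifiers, 399 fell and 258 rose with heat in set1Δ, and their median log2 fold change was 0.11, against -1.89 for the members.

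A list of 25 genes for telomere proteins and silencing factors was counted too. Its share of rises was 20% in lsd1-ΔHMG and 12% in set1Δ at 30°C, and 32% and 4% at 37°C. These shares rest on few genes each, and their difference from all features was not tested. In lsd1-ΔHMG 5 were higher and 2 lower at 30°C (24.4% and 18.1% of all features), and 8 higher and 1 lower at 37°C (25.4% and 15.4%). In set1Δ 3 were higher and 0 lower at 30°C (21.1% and 11.6%), and 1 higher and 0 lower at 37°C (18.7% and 5.53%). Single genes are named here after their values were seen. In lsd1-ΔHMG at 30°C the H3K9 methyltransferase gene clr4 was higher by 1.58 (adjusted p = 3.6e-08 from edgeR). The histone deacetylase gene clr3 was higher there by 2.0 (adjusted p = 4.7e-08 from edgeR). Going the other way, the 2 listed genes called lower in that comparison were taz1, by -1.14, and the HP1 gene chp2, by -1.22.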

How the data were processed

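The authors trimmed reads of strand-specific mRNA libraries with Trimmomatic 0.39, aligned them to ASM294v2 with STAR and assigned them with featureCounts by fraction; reads were filtered by strand with SAMtools for a stranded analysis, and whether the deposited table is that one is not given in the sources used here. The deposited values are expected counts without normalization, and between 73.7% and 83.6% of them per library were not whole, so they were rounded. Of 34 value columns, 12 matched the samples and 22 were not used. R 4.3.3, edgeR 4.0.16 (TMM, filterByExpr, robust quasi-likelihood fit over 12 libraries, Benjamini-Hochberg adjustment over all tested features), DESeq2 1.42.0 and limma 3.58.1 were used, with blastp 2.17.0 for copies. The fit was first tested on simulated data. Names, lengths and sequences came from RefSeq ASM294v3 by identifier (57 of 57 members matched). The 2 libraries per condition limit precision. The p-values measure only the spread between replicate libraries, estimated jointly over the 6 conditions and moderated across the tested features.

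Named genes are tlh1 and, in each of 9 comparisons, the 3 largest rises and falls among called members with a mean of at least 20 counts. Others named stand for their group and were chosen after their values were seen. Roles were read from RefSeq product names, except that SPAC750.07c, uncharacterized there, was counted as a cell surface gene like its copy SPAC212.12. The members and lists were chosen with earlier results of these data known. The alternatives were other scalings, filters, tests, thresholds and motif windows, offsets for GC content and length, a replicate block, members without shared stretches (added after the data were seen), only the libraries compared, members without copies, and each library left out in turn.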

Additional observations from a re-analysis of the deposited data

Results flagged for a closer look

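The change in each mutant against WT differed between 37°C and 30°C for a number of members, by the interaction test of edgeR. A call needed an adjusted p under 0.05 and an interaction of at least 1 on the log2 scale in either direction. The change differed for 17 members in lsd1-ΔHMG and for 42 in set1Δ, where 18.5% and 36.8% of all features were called. In lsd1-ΔHMG the most positive interactions were those of hry1 (5.17 on the log2 scale), SPAC186.02c (4.65) and SPAC869.09 (3.82), and the most negative were those of SPAC212.05c (-3.75), SPAC212.03 (-2.19) and dak2 (-1.49). In set1Δ they were hry1 (6.92), SPAC869.09 (5.36) and pcm2 (5.06), and SPAC977.18 (-6.01), SPAC869.01 (-4.97) and SPAC212.02 (-4.70). These values use the WT libraries whose temperature label hsp16 goes against. In the contrast of set1Δ libraries alone, the fall with heat was -8.68 for SPAC977.18, -4.99 for SPAC869.01 and -6.13 for SPAC212.02, while hry1 changed by 0.10, which was not called.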

How the results depend on the processing

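Over other scalings, filters, tests, offsets and fits of only the libraries compared, no named change reversed, and the weakened ones are tlh1 in set1Δ against WT, tlh1 with heat in lsd1-ΔHMG and set1Δ, and cat1 with heat in WT. With the GC and length offsets cat1 was 0.98, tlh1 was 0.87 and 0.67 in set1Δ at 30°C and 37°C, and tlh1 with heat in lsd1-ΔHMG was -0.86. That last change was -0.97 without lsd1-ΔHMG 30°C replicate 1 and -0.92 without lsd1-ΔHMG 37°C replicate 1, and in set1Δ it was -0.99 with upper-quartile factors. A log2 limit of 2 lowered the members called to 22 (lsd1-ΔHMG at 30°C), 10 (lsd1-ΔHMG at 37°C), 17 (set1Δ at 37°C), 13, 6 and 26 (heat in WT, lsd1-ΔHMG and set1Δ), 16 (between mutants at 37°C) and 8 (lsd1-ΔHMG interaction). Without members with near-identical copies the counts were 21 and 15 (lsd1-ΔHMG at 30°C and 37°C), 18 and 12 (set1Δ), 15, 13 and 24 (heat, same order), 21 and 19 (between mutants) and 22 (set1Δ interaction). Without members with shared stretches, a setting added after the data were seen, they were 17 and 13, 15 and 8, 12, 10 and 19, 18 and 15, and 18. Both settings count fewer members. Leaving out each library in turn gave 41 to 44 and 30 to 34 calls in lsd1-ΔHMG, 27 to 30 and 28 to 31 in set1Δ, 25 to 31, 24 to 28 and 47 to 49 with heat, 38 to 39 and 31 to 34 between mutants, and 17 to 21 and 42 to 43 for the interactions. The lsd1-ΔHMG interaction split was 11 up and 6 down, and 10 and 10 with DESeq2 size factors. The main fit did not pair the samples by replicate number. Deviations of equally numbered replicates correlated between conditions from -0.177 to 0.352, so whether the replicate numbers mark pairs is not known. With a replicate block the falls with heat in WT went from 26 to 27 and the other counts were as without it. No identifier carried a further suffix, so that alternative gave no value.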
